A study of Homo sapiens with 6 samples.

Results

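Chemokines are small secreted proteins that attract leukocytes, and 10 genes that encode them were followed in CAL62 cells: CXCL8, CXCL1, CXCL2, CXCL3, CXCL5, CXCL6, CXCL10, CXCL16, CCL2 and CCL20. They were chosen by symbol, and each was read from the row of its Ensembl identifier that held most counts, so that they make up 10 of the 39168 identifiers in the deposited tables. A filter on low counts kept 8 of the 10 among the 12821 genes tested and left out CXCL6 and CCL2. CAL62 is an established anaplastic thyroid carcinoma (ATC) cell line, labelled here as wild type. Erianin, a small molecule, was given at 50 nM for 48 h before 3 of the libraries (erianin replicates 1 to 3), and cells of the other 3 (DMSO replicates 1 to 3) received the solvent DMSO alone over the same time. RNA sequencing of total RNA gave between 25776301 and 34107727 reads on named genes per library. The labels do not say whether the 3 libraries of a group came from separate cultures, so the p-values measure only the spread between these libraries, which may be technical.

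The ligands fall into groups by the receptors they bind. CXCL1, CXCL2, CXCL3, CXCL5, CXCL6 and CXCL8 (interleukin-8) carry a glutamate-leucine-arginine motif and attract neutrophils through CXCR2, with CXCL8 and CXCL6 also acting on CXCR1. CXCL10 lacks that motif, is induced by interferon and attracts activated T cells through CXCR3, CXCL16 is made as a transmembrane protein and binds CXCR6, CCL2 attracts monocytes through CCR2, and CCL20 attracts cells that carry CCR6. Inflammatory cytokines induce most of these genes through NF-kB together with AP-1 and C/EBP factors, and AU-rich stretches in their 3′ untranslated regions (UTRs) make many of the transcripts short-lived.

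The DMSO replicate 3 library stood apart from its group. The Euclidean distance in log2 CPM (counts scaled to library size, here with TMM factors) over the tested genes was 37.2 between DMSO replicates 1 and 2, 64.1 and 62.9 from these to DMSO replicate 3, and between 28.2 and 29 among the erianin libraries. The spread between libraries of a group, as edgeR's biological coefficient of variation, fell from 0.139 to 0.0421 when DMSO replicate 3 was left out, and results that rest on this library are given with and without it. Among thyroid lineage markers, PAX8 was called lower with erianin, at 643 to 739 CPM with DMSO and 419 to 433 CPM with erianin (log2 fold change -0.66, adjusted p = 0.00403 in edgeR's quasi-likelihood test), while NKX2-1 and TSHR had no count in any library, and TG did not exceed 0.381 CPM. KRT8 stood between 1182 and 1556 CPM, VIM at 1153 to 1511 CPM with DMSO and 915 to 956 CPM with erianin (log2 fold change -0.47, not called), and FN1 (fibronectin) was called lower at a log2 fold change of -0.80 (adjusted p = 0.00761 in the same edgeR test). FOXE1, another thyroid marker, stood between 1.07 and 2.28 CPM. CDH1 (E-cadherin) did not exceed 0.258 CPM, while EPCAM stood between 17.7 and 23.3 CPM and CDH2 (N-cadherin) between 46.1 and 63.9 CPM. Thus the libraries had epithelial keratin but almost no E-cadherin, together with mesenchymal vimentin. They had the thyroid factor PAX8, with little or no transcript for the products of differentiated thyroid cells. Of 10 leukocyte markers, 2 (FCGR3A and MS4A1) had no count in any library, PTPRC (CD45) did not exceed 0.172 CPM, and the summed level was 2.5 to 3.45 CPM with DMSO and 4.21 to 5.4 CPM with erianin, most of it CD14. The 11 endothelial and fibroblast markers summed to 44.1 to 48.2 CPM with DMSO and 51.8 to 58.2 CPM with erianin. Among them COL1A2 was called higher, from 9.8 ± 2.29 to 24.9 ± 2 CPM (SD, n = 3, log2 fold change 1.35, adjusted p = 0.00532 in edgeR's quasi-likelihood test), while COL1A1 went from 34.7 ± 2.39 to 27.8 ± 1.44 CPM and was not called. The part of these markers in the chemokine values was not tested, and in bulk RNA fewer cells of a type and less RNA per cell cannot be told apart.

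Erianin-treated libraries had more CXCL8, CXCL5 and CCL20 transcript than DMSO libraries. CXCL8 was 2.84-fold, CXCL5 2.04-fold and CCL20 3.34-fold higher, while CXCL2 stood between 113 and 129 CPM in all 6 libraries. A gene was called where its log2 fold change exceeded 0.5 in size and its Benjamini-Hochberg adjusted p from edgeR's quasi-likelihood test was under 0.05. By that rule 3 of the 8 tested chemokine genes rose and 0 fell, against 5.37% of all tested genes called higher and 3.36% called lower. At an unadjusted p under 0.05 without the fold-change threshold the same test found 0 of the 8 lower, and DESeq2 also called 0 lower. The median log2 fold change was 0.34 over the 8 genes and 0.00 over all 12821 genes tested.

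**Figure D1:**
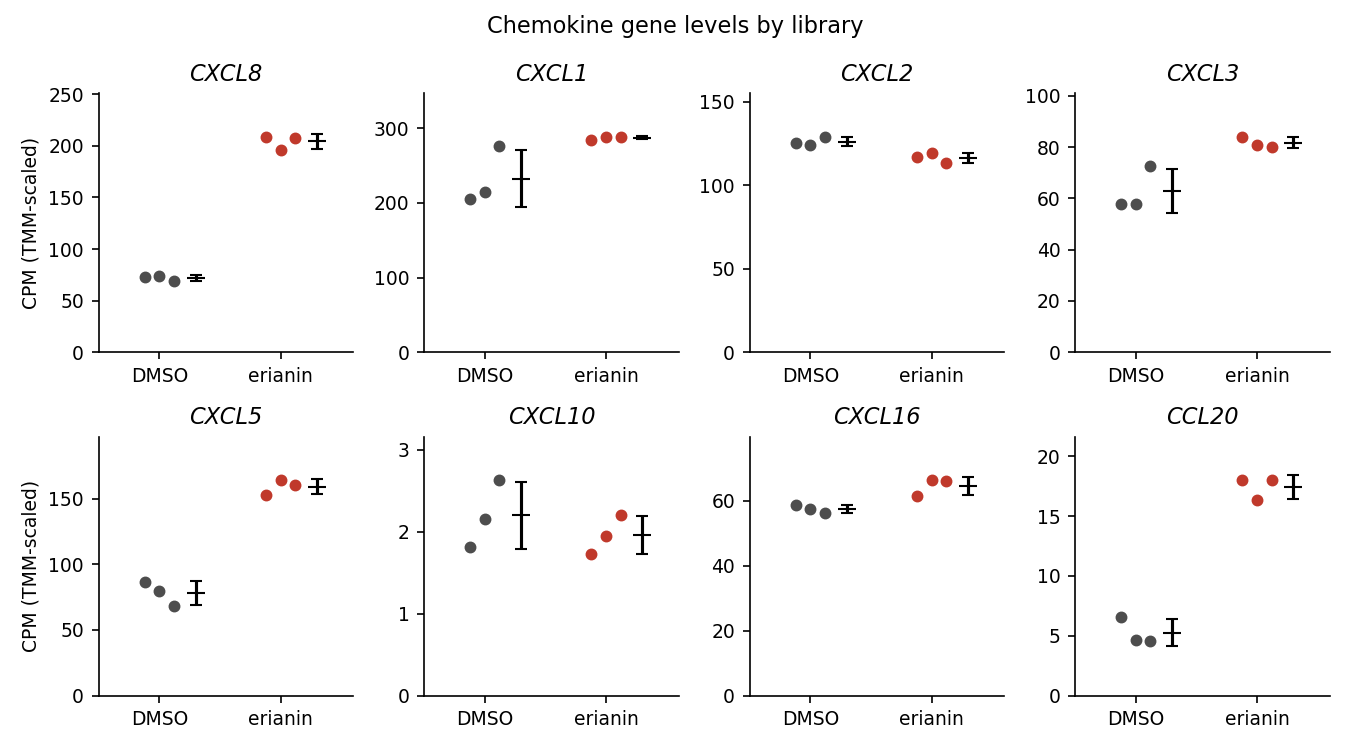
Points give the CPM (vertical axis, counts scaled to library size with TMM factors, starting at 0 and with its own range for each gene) of the 8 tested chemokine genes in each DMSO library (grey) and erianin library (red), with the mean ± SD of 3 libraries as black bars. CXCL8, CXCL5 and CCL20 lie well apart between the groups, whereas DMSO replicate 3 (rightmost grey point) comes near the erianin libraries for CXCL1 and CXCL3.

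Sequence upstream of the 3 genes that rose is shown here because these are the stretches next to their RefSeq starts, and which start the measured transcripts used was not tested. Each run holds the 250 bases before the RefSeq start on GRCh38.p14, printed 5′ to 3′ on the strand of the gene, at chr4:73740319-73740568 (+ strand) for CXCL8, chr4:73998678-73998927 (− strand) for CXCL5 and chr2:227813592-227813841 (+ strand) for CCL20. The GENCODE release 29 gene reaches beyond the RefSeq start in all 3 cases, so part of the CXCL8 and CXCL5 runs and the whole CCL20 run lie within the annotated gene. Capitals mark matches to the searched motifs.
CXCL8: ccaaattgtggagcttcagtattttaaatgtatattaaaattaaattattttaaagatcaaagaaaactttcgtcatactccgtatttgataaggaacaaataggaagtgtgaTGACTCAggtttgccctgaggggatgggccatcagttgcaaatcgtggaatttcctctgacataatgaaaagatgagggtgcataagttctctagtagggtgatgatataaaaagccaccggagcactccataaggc
CXCL5: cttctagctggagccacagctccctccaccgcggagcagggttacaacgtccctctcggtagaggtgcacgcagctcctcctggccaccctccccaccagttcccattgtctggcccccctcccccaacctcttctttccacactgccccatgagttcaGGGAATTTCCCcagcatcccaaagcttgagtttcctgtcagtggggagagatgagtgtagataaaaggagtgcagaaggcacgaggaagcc
CCL20: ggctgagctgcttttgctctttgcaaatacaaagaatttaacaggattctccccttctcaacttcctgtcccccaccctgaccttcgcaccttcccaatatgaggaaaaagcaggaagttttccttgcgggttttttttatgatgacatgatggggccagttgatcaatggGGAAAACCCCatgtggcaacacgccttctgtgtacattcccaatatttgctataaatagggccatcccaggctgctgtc
The motifs searched, on both strands, were the NF-kB consensus by its usual degenerate form, AP-1 (TGACTCA), C/EBP (TTGCNNAA) and the ATF4 and CHOP composite (TGATGNAA). They were found in 5.21%, 4.2%, 9.05% and 3.14% of 35116 RefSeq promoters of the same length, in that order. The CXCL8 run holds 1 AP-1 match that begins 137 bases before the start and no match to the NF-kB consensus as written. It does hold tggaatttcc, which differs from that consensus in its first letter alone, and ttgcaaat, which differs from the C/EBP motif in its last letter alone. Such near matches were not searched for in any run and are left unmarked, so the lack of a match does not mean the lack of a site. The CXCL5 run holds an NF-kB match of 11 bases that begins 91 bases before the start, in which matches on both strands overlap, and the CCL20 run holds an NF-kB match of 10 bases on the opposite strand that begins 79 bases before the start. A match describes letters and does not show that a factor binds there.

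CXCL8, the best-known neutrophil attractant of the family, had 1781, 2393 and 2138 reads in DMSO replicates 1 to 3 and 7144, 6840 and 7269 reads in erianin replicates 1 to 3. These counts correspond to 73.1, 73.7 and 68.6 CPM with DMSO and 209, 196 and 208 CPM with erianin. The groups did not overlap, with erianin higher, which was so for 19.5% of all tested genes, and the lowest erianin library was far above the highest DMSO library. CXCL8 rose by a log2 fold change of 1.51 (SE 0.07), with an adjusted p of 0.000162 in edgeR's quasi-likelihood test. Without DMSO replicate 3 the log2 fold change was 1.47 (SE 0.05).

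CXCL5, an epithelial neutrophil attractant, stood at 86.2, 80 and 68.2 CPM in DMSO replicates 1 to 3 and at 153, 164 and 160 CPM in erianin replicates 1 to 3. The lowest DMSO value came from DMSO replicate 3, and the groups did not overlap. CXCL5 rose by a log2 fold change of 1.03 (SE 0.10, adjusted p = 0.00196 in edgeR's quasi-likelihood test). The value was 0.93 (SE 0.05) without DMSO replicate 3, and it was 0.79 (SE 0.18, adjusted p = 0.0166 in the same test) when each library's trend on transcript GC content was removed. With that GC offset the log2 fold changes of CXCL8 and CCL20 were 1.28 and 1.52. Transcripts of the 3 genes that rose have a GC content of 37.1% to 38%, CXCL10 has 37.5%, and the other tested members have 50.9% to 57.1%.

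CCL20, the ligand of CCR6 and a chemokine of the CC class, was measured from fewer reads. It had 160, 150 and 142 reads in DMSO replicates 1 to 3 (6.57, 4.62 and 4.56 CPM) and 615, 569 and 631 reads in erianin replicates 1 to 3 (18, 16.3 and 18 CPM). DMSO replicate 1 was the highest of its group and remained well below every erianin library. CCL20 rose by a log2 fold change of 1.74 (SE 0.16, adjusted p = 0.00185 in edgeR's quasi-likelihood test). All 3 genes were called higher with each library left out in turn, with log2 fold changes of 1.47 to 1.54 for CXCL8, 0.93 to 1.10 for CXCL5 and 1.65 to 1.92 for CCL20.

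The CXCL1, CXCL2 and CXCL3 genes, close paralogs once named GRO alpha, beta and gamma, were abundant but were not called. CXCL1 had 206, 215 and 276 CPM in DMSO replicates 1 to 3 and 285, 288 and 289 CPM in erianin replicates 1 to 3. DMSO replicate 3 reached close to the erianin level while the other DMSO libraries did not. The log2 fold change was 0.31 (SE 0.11, adjusted p = 0.113 in edgeR's quasi-likelihood test). Without DMSO replicate 3 it was 0.44 (SE 0.04, adjusted p = 8.61e-11 in the same test), which stayed under the fold-change threshold, and with DMSO replicate 1 left out it was 0.22.

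CXCL3 showed the same placing of libraries, with 57.8, 58 and 72.6 CPM in DMSO replicates 1 to 3 and 84.1, 80.8 and 80.1 CPM in erianin replicates 1 to 3. The groups did not overlap, and DMSO replicate 3 was again the nearest to the erianin libraries. The log2 fold change was 0.38 (SE 0.11, adjusted p = 0.0516 in edgeR's quasi-likelihood test). Without DMSO replicate 3 it was 0.49 (SE 0.05, adjusted p = 1.95e-09 in the same test). With any other library left out it was 0.32 to 0.39, with an adjusted p of 0.149 to 0.188 in that test. CXCL2, in contrast, had 125, 124 and 129 CPM in DMSO replicates 1 to 3 and 117, 119 and 113 CPM in erianin replicates 1 to 3. Its groups did not overlap either, with erianin lower, as in 19.3% of all tested genes, but the log2 fold change was -0.11 (SE 0.07, adjusted p = 0.284 in edgeR's quasi-likelihood test). On log2(TPM + 1) values the sign of CXCL2 turned, to 0.08, where the median over all genes was 0.18.

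CXCL16, the transmembrane ligand that also serves as a scavenger receptor, had 58.6, 57.3 and 56.3 CPM in DMSO replicates 1 to 3 and 61.4, 66.3 and 66 CPM in erianin replicates 1 to 3. The groups did not overlap, though erianin replicate 1 lay close to the DMSO libraries, and the log2 fold change was 0.17 (SE 0.07, adjusted p = 0.17 in edgeR's quasi-likelihood test). CXCL10, the interferon-induced ligand, had 1.81, 2.16 and 2.63 CPM in DMSO replicates 1 to 3 and 1.73, 1.95 and 2.2 CPM in erianin replicates 1 to 3. Its groups overlapped, and the log2 fold change was -0.17 (SE 0.21, adjusted p = 0.62 in edgeR's quasi-likelihood test), or 0.04 on log2(TPM + 1). The CXCL10 value was -0.29 without DMSO replicate 1, -0.27 without erianin replicate 3, -0.10 without erianin replicate 1, -0.03 without DMSO replicate 3 and -0.36 with the GC offset, and it was not called in any of these. In all, the groups did not overlap in CPM for 7 of the 8 tested genes, against 38.7% of all tested genes, and of these 6 were higher with erianin and 1, CXCL2, was lower.

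CXCL6 and CCL2 were near absence. CXCL6, the closest relative of CXCL5, had 2 reads in erianin replicate 1 and 0 in the other libraries. CCL2 had 2 reads in erianin replicate 2 and 0 in the other libraries. A count of 0 allows up to 3 counts, or 0.088 to 0.116 CPM in these libraries, so both genes were at or below what this depth can show and no fold is given for them.

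**Figure D2:**
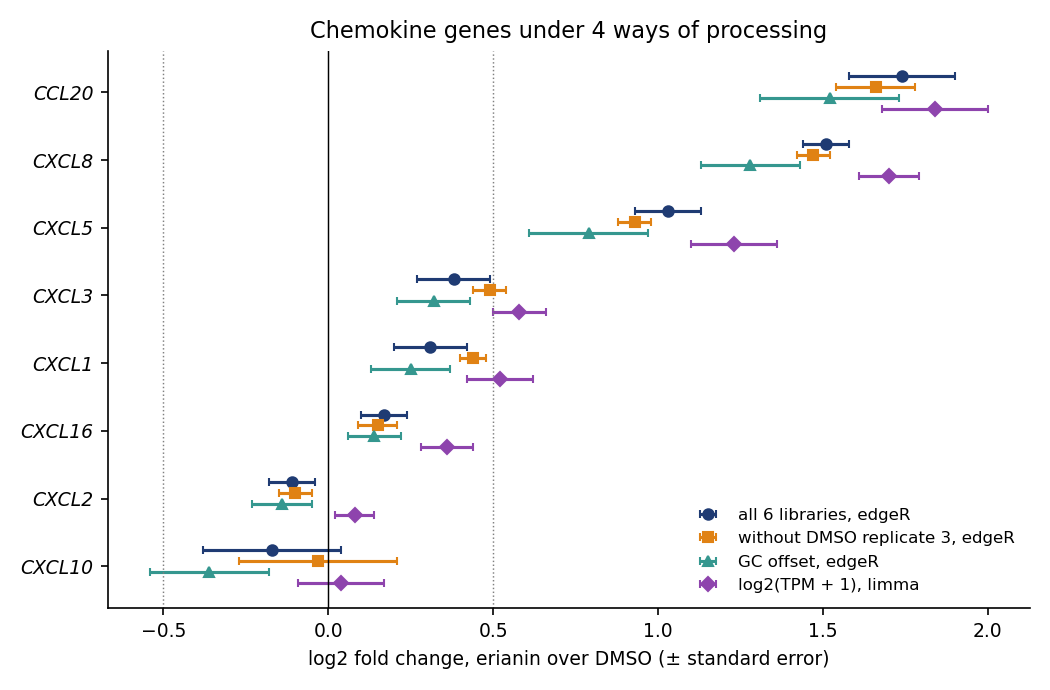
The horizontal axis gives the log2 fold change of erianin over DMSO (± SE) for the 8 tested chemokine genes under 4 ways of processing, and dotted lines mark 0.5 in either direction. CXCL8, CXCL5 and CCL20 lie beyond 0.5 in all 4, CXCL1 and CXCL3 pass 0.5 on log2(TPM + 1) values alone of the 4, and CXCL2 and CXCL10 change sign there.

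The call of CXCL1 and CXCL3 depended on the scale. The authors also deposited TPM, which divides by gene length and then by the sum of such length-scaled values in the library. With limma on log2(TPM + 1), 5 of the 8 genes were called higher, where 9.41% of all tested genes were, and CXCL1 had a log2 fold change of 0.52 (adjusted p = 0.02) and CXCL3 one of 0.58 (adjusted p = 0.00874). The deposited TPM columns add up to 73.5%, 72.6% and 59.1% of their nominal total in DMSO replicates 1 to 3 and to 77.2%, 75.1% and 78.3% in erianin replicates 1 to 3. That share was lowest in DMSO replicate 3, and with the TPM scale the median of all tested genes moved to 0.18. Without DMSO replicate 3, edgeR called the same number of chemokine genes, 3, where 11.4% of all genes tested were called higher and 6.11% lower.

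Levels of the genes can be compared with each other on the TPM scale, which is per length. CXCL1 was the most abundant chemokine transcript, at 745, 782 and 914 TPM in DMSO replicates 1 to 3 and 1149, 1148 and 1185 TPM in erianin replicates 1 to 3. CXCL2 came next with DMSO, at 303 to 319 TPM. After these stood CXCL5 (149 to 205 TPM) and CXCL8 (127 to 149 TPM), whose DMSO ranges overlapped. Within each DMSO library CXCL5 was nevertheless above CXCL8, at 205, 191 and 149 against 147, 149 and 127 TPM in DMSO replicates 1 to 3. CXCL3 followed at 84.6 to 97.4 TPM and CXCL16 at 47.4 to 53.8 TPM. CXCL10, at 9.28 to 12.4 TPM, and CCL20, at 7.46 to 11.7 TPM, overlapped at the low end.

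With erianin the order of levels was different, and the ranges of neighbours did not overlap among the 8 genes. CXCL8 stood at 434 to 473 TPM and CXCL5 at 405 to 432 TPM, the former above the latter by a narrow margin and both above CXCL2 at 328 to 335 TPM. CCL20, at 32 to 36.4 TPM, stood above CXCL10 at 9.9 to 12.8 TPM. CXCL3 had 130 to 137 TPM and CXCL16 had 62.9 to 68.7 TPM.

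The make-up of the pool of chemokine transcripts shifted with these levels. The 10 genes summed to 1575, 1598 and 1658 TPM in DMSO replicates 1 to 3 and to 2604, 2587 and 2669 TPM in erianin replicates 1 to 3. In CPM the sums were 615, 614 and 678 with DMSO and 929, 932 and 937 with erianin. CXCL8 made up 7.64% to 9.33% of the summed TPM with DMSO and 16.8% to 18% with erianin, and CXCL5 8.99% to 13% and 15.6% to 16.7%. CXCL2 made up 18.3% to 20.2% with DMSO and 12.3% to 12.9% with erianin. CXCL1 remained the largest share, at 47.3% to 55.1% with DMSO and 44.1% to 44.4% with erianin.

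**Figure D3:**
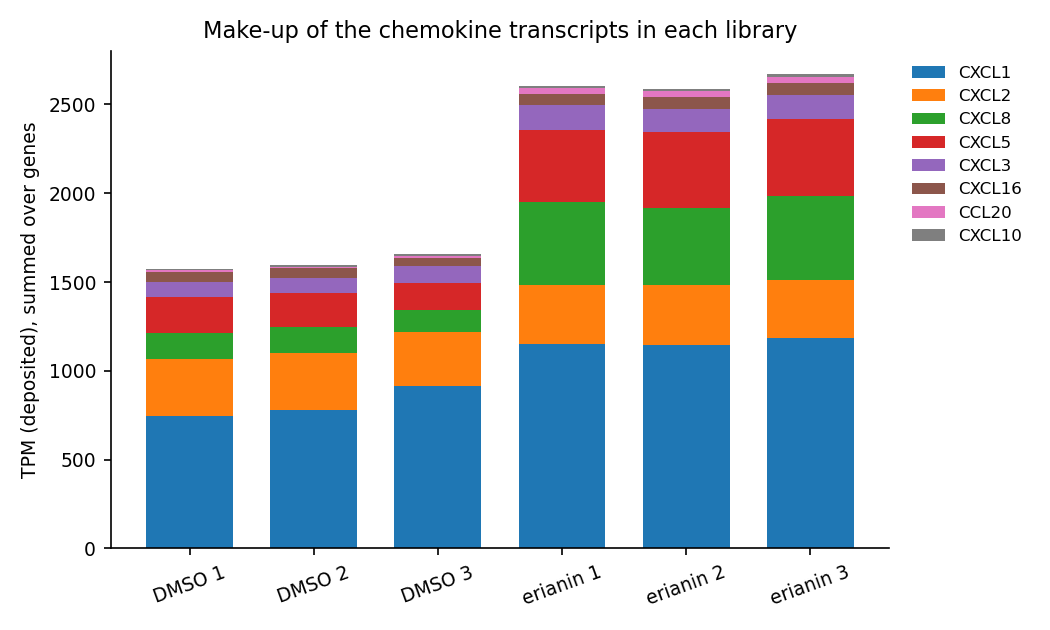
Each bar is 1 library and its height is the deposited TPM summed over the tested chemokine genes, with a colour for each gene. The bars of the 3 erianin libraries reach about 2604, 2587 and 2669 TPM against 1575, 1598 and 1658 TPM for DMSO, and the CXCL8 and CXCL5 segments are the ones that widen most in proportion among the abundant genes.

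Ratios to CXCL8 within a library do not depend on the library's scaling. The CPM ratio of CXCL2 to CXCL8 was 1.7, 1.68 and 1.88 in DMSO replicates 1 to 3 and 0.561, 0.605 and 0.545 in erianin replicates 1 to 3, so CXCL2 exceeded CXCL8 in every DMSO library and was below it in every erianin library. The log2 ratio to CXCL8 was lower with erianin by 1.62 for CXCL2, a difference of -1.62, and the differences were -1.19 for CXCL1, -1.12 for CXCL3, -0.48 for CXCL5, -1.34 for CXCL16 and -1.66 for CXCL10. None of these 6 ratios overlapped between the groups, and each had an exact two-sided permutation p of 0.1, the smallest that 3 against 3 libraries allow (0.117 after Benjamini-Hochberg adjustment over 7 ratios). CCL20 had ratios to CXCL8 of 0.0898, 0.0627 and 0.0664 in DMSO replicates 1 to 3 and 0.0861, 0.0832 and 0.0868 in erianin replicates 1 to 3. The log2 difference of the CCL20 ratio was 0.24 (exact permutation p = 0.4, adjusted p = 0.4), and its groups overlapped. All 7 ratios share CXCL8 as the denominator, so its rise alone lowers the ratio of a gene that did not change. The share of all tested genes whose ratio to CXCL8 did not overlap between the groups was not computed. The separation of these ratios is therefore not a result about the other members.

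The 6 ligands that attract neutrophils sit in 1 cluster on chromosome 4, as annotated by GENCODE release 29 on GRCh38. CXCL8 (ENSG00000169429) lies at chr4:73740506-73743716, CXCL6 starts 96 kb from it, CXCL1 129 kb, CXCL5 255 kb, CXCL3 296 kb and CXCL2 357 kb. CXCL5 (ENSG00000163735) lies at chr4:73995642-73998779 between CXCL1 and CXCL3. Members that rose thus lie among members that were not called. The platelet chemokine genes PF4V1, PF4 and PPBP, which lie among them, were under the low-count filter, with PF4V1 and PF4 at a mean of 0 CPM and PPBP at 0.0434 CPM. MTHFD2L, the next gene after CXCL2, had a log2 fold change of 0.30 (SE 0.15, adjusted p = 0.221 in edgeR's quasi-likelihood test). CXCL10 lies farther along chromosome 4, at chr4:76021117-76023497, CCL20 (ENSG00000115009) at chr2:227805739-227817564, and CXCL16 and CCL2 on chromosome 17.

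**Figure D4:**
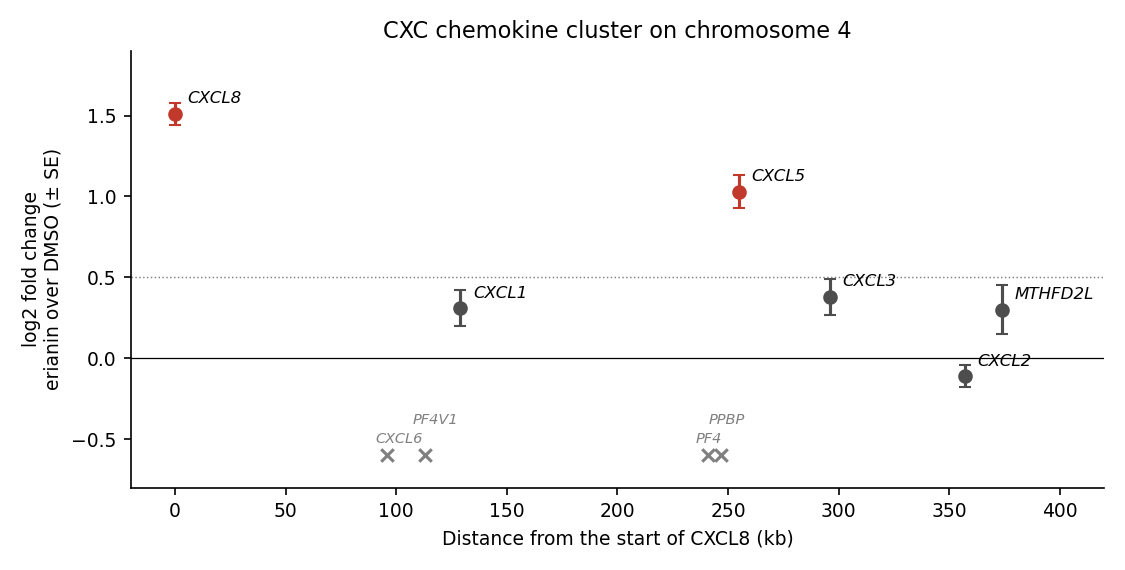
The horizontal axis gives the distance in kb from the start of CXCL8 to genes of the chromosome 4 cluster, and the vertical axis their log2 fold change of erianin over DMSO (± SE), with called genes in red, other tested genes in grey, a dotted line at 0.5 and crosses without a value for genes under the low-count filter. CXCL8 at 1.51 and CXCL5 at 1.03 stand above CXCL1, CXCL3 and MTHFD2L at 0.30 to 0.38, and CXCL2 lies at -0.11.

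The windows around the NF-kB match are shown for the 3 paralogs and CXCL6 because they hold the same 11 letters as the CXCL5 run. CXCL5 was called higher, CXCL1, CXCL2 and CXCL3 were not called, and CXCL6 was not tested. The part of the match in these values was not tested. Capitals mark the match, flanked by 9 bases on either side, 5′ to 3′ on the strand of the gene, from RefSeq on GRCh38.p14. The windows lie at chr4:73869305-73869333 (+ strand) for CXCL1, chr4:74099254-74099282 (− strand) for CXCL2, chr4:74038749-74038777 (− strand) for CXCL3 and chr4:73836579-73836607 (+ strand) for CXCL6.
CXCL1: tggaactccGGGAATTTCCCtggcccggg
CXCL2: tggagctccGGGAATTTCCCtggcccggg
CXCL3: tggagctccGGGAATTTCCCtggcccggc
CXCL6: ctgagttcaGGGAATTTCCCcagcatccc
The match begins 79, 78, 79 and 90 bases before the RefSeq start in these genes. CXCL2 alone of the 8 members with a promoter entry also holds a C/EBP match, 188 bases before the start, and CXCL10 holds 2 NF-kB matches, 177 and 122 bases before it. CXCL8 was the only member with an AP-1 match, and none held the ATF4 and CHOP composite.

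The paralogs are alike enough that reads could be shared between them. Over the coding sequence CXCL1 and CXCL2 are identical at 93.5% of positions, CXCL1 and CXCL3 at 90.7%, CXCL2 and CXCL3 at 94.4%, and CXCL5 and CXCL6 at 87.4%, whereas CXCL8 matches the others at 49.4% to 54.8%. Over whole transcripts, 5.73% of the stretches of 50 bases in CXCL1, 9.24% in CXCL2 and 5.26% in CXCL3 occur in another of the 3 genes. No stretch of 50 bases of CXCL8 or CCL20 occurs in another gene's transcript, and CXCL5 shares 1.12% of its stretches with GLYR1. No member shares a stretch of 100 bases. How reads with several matches were counted is not given in the sources used here, so the values of CXCL1, CXCL2 and CXCL3 carry that uncertainty. CXCL10 overlaps ART3 and CXCL16 overlaps MED11 on the other strand, and the strand setting of the counting is not given either.

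The AU-rich pentamer ATTTA was dense in the 3′ UTR of the neutrophil attractants and CCL20. It occurs 9 times in the CXCL8 3′ UTR (7.19 per kb), 5 times in CXCL1 (7.08 per kb), 10 times in CXCL2 (13.9 per kb), 7 times in CXCL3 (10.4 per kb), 11 times in CXCL5 (5.51 per kb) and 3 times in CCL20 (6.24 per kb). Among 12272 tested genes with an annotated 3′ UTR, 73% hold the pentamer and the median density is 1.7 per kb. CXCL10 and CXCL16 hold 1 each, at 1.23 and 1.02 per kb. CXCL2 has the densest 3′ UTR of the members, above 99.7% of those genes, and was not called. The longer form TTATTTATT occurs in 9.45% of the genes, 5 times in CXCL2, 3 times in CXCL1 and once each in CXCL8 and CXCL3, and not in CXCL5 or CCL20.

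Other chemokines were mostly silent. Of 33 further chemokine symbols 25 matched an identifier, 12 of these had no count in any library, and 3 could be tested. CX3CL1 (fractalkine), which like CXCL16 is made as a transmembrane protein, had 0.575, 0.74 and 0.578 CPM in DMSO replicates 1 to 3 and 2.34, 2.15 and 2.23 CPM in erianin replicates 1 to 3. The groups lay apart, and CX3CL1 rose by a log2 fold change of 1.81 (SE 0.21, adjusted p = 0.00358 in edgeR's quasi-likelihood test). CCL28, a mucosal chemokine, averaged 7.67 ± 1.7 CPM with DMSO and 6.85 ± 0.256 CPM with erianin (SD, n = 3), and CXCL11, an interferon-induced relative of CXCL10, 1.25 ± 0.404 and 1.32 ± 0.314 CPM. Neither was called, with log2 fold changes of -0.17 and 0.08.

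The receptors of CXCL8, CXCL5 and CCL20 were not detected at this depth. CXCR1, CXCR2 and CCR6 had no count in any library, and neither had CCR2, the receptor of CCL2. Of 23 chemokine receptor genes 5 could be tested. CXCR4, the receptor of CXCL12, had 0.411, 0.185 and 0.835 CPM in DMSO replicates 1 to 3 and 1.17, 2.18 and 2.28 CPM in erianin replicates 1 to 3, a rise of 1.97 on the log2 scale (SE 0.49, adjusted p = 0.0368 in edgeR's quasi-likelihood test). The receptor gene with the highest CPM was CCR10, the receptor of CCL28, at 21.1, 21.4 and 15.5 CPM with DMSO and 15.3, 13.4 and 14 CPM with erianin. It was not called (log2 fold change -0.44, SE 0.15, adjusted p = 0.0846 in the same test), and DMSO replicate 3 lay next to the erianin libraries.

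Genes that act upstream of the chemokines changed in part. Of 15 cytokines and receptors known to induce chemokines, all tested, 2 rose and 0 fell (against 5.37% higher and 3.36% lower among all tested genes), with a median log2 fold change of 0.29. They were IL1A, an alarmin cytokine, with a log2 fold change of 0.71 (SE 0.15, adjusted p = 0.0209 in edgeR's quasi-likelihood test), and IL6R, at 0.88 (SE 0.18). TNFRSF1A, the main TNF receptor and the gene of highest CPM in the list, went from 210 ± 7.45 to 159 ± 3.57 CPM (SD, n = 3), a log2 fold change of -0.40 that passed the adjusted p (0.00923, edgeR's quasi-likelihood test) but not the fold-change threshold. OSMR, IL17RC and IFNGR2, receptors of oncostatin M, interleukin-17 and interferon gamma, had log2 fold changes of -0.39, -0.25 and -0.19 and were not called. Without the fold-change threshold, 5 of the 15 genes passed the adjusted p in that test, against 1912 of all 12821 tested genes.

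Of the NF-kB list 14 of 15 genes were tested, 3 rose and 0 fell (against 5.37% higher and 3.36% lower among all tested genes), with a median of 0.15. TNFAIP3 (A20) and BIRC3, targets of NF-kB that feed back on it, each rose by 0.69 (SE 0.10 and 0.15), and CHUK, a kinase of the pathway, rose by 0.63 (SE 0.10). Each of these 3 calls was lost with some single library left out, and of the 6 such fits the one without DMSO replicate 3 was the only one that called BIRC3. NFKBIA, a target of the same pathway that encodes its inhibitor, stood at 317 ± 30.9 CPM with DMSO and 295 ± 7.09 CPM with erianin (SD, n = 3). RELA and NFKB2, subunits of the factor, had log2 fold changes of -0.18 and 0.13, and TNIP1, a partner of A20, one of -0.29. NFKBIA, RELA, NFKB2 and TNIP1 were not called, TNIP1 for the size of its change alone (adjusted p = 0.0428 in edgeR's quasi-likelihood test).

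All 12 genes of the AP-1 and C/EBP list were tested, 3 rose and 0 fell (against 5.37% higher and 3.36% lower among all tested genes), with a median of 0.16. ATF3, a stress-induced factor, went from 11.6 ± 2.17 to 40.6 ± 1.69 CPM (SD, n = 3), a log2 fold change of 1.82 (SE 0.15, adjusted p = 0.00105 in edgeR's quasi-likelihood test). DDIT3 (CHOP), a factor of the integrated stress response, rose by 1.26 (SE 0.15), and FOSB by 0.63 (SE 0.09). The genes of highest CPM in the list, FOSL1, JUN, JUNB and CEBPB, had log2 fold changes of -0.21, 0.23, 0.14 and 0.02 and were not called.

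The interferon axis that induces CXCL10 had 11 tested genes. By the call rule of edgeR 0 rose and 0 fell (against 5.37% higher and 3.36% lower among all tested genes). At such shares few calls would be found among 11 genes in any case. The median log2 fold change was 0.32, with 9 of the 11 genes above 0 (6446 of 12821 over all tested genes). ISG15, STAT2 and IRF3 had log2 fold changes of 0.57, -0.27 and -0.31 and were not called. Of 12 genes that act on AU-rich transcripts, all tested, 2 rose and 0 fell (against 5.37% higher and 3.36% lower among all tested genes). ZFP36 (tristetraprolin), which promotes their decay, rose by 0.58 (SE 0.13) and its relative ZFP36L2 by 0.59 (SE 0.12). With 1 library left out, both were called without DMSO replicate 3 and in none of the other 5 fits. ZFP36L1, KHSRP, HNRNPD and MAPKAPK2 had log2 fold changes of 0.20, -0.13, -0.28 and 0.03 and were not called. ADAM10 and ADAM17, which release CXCL16 from the membrane, had log2 fold changes of -0.04 and 0.26 and were not called.

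**Figure D5:**
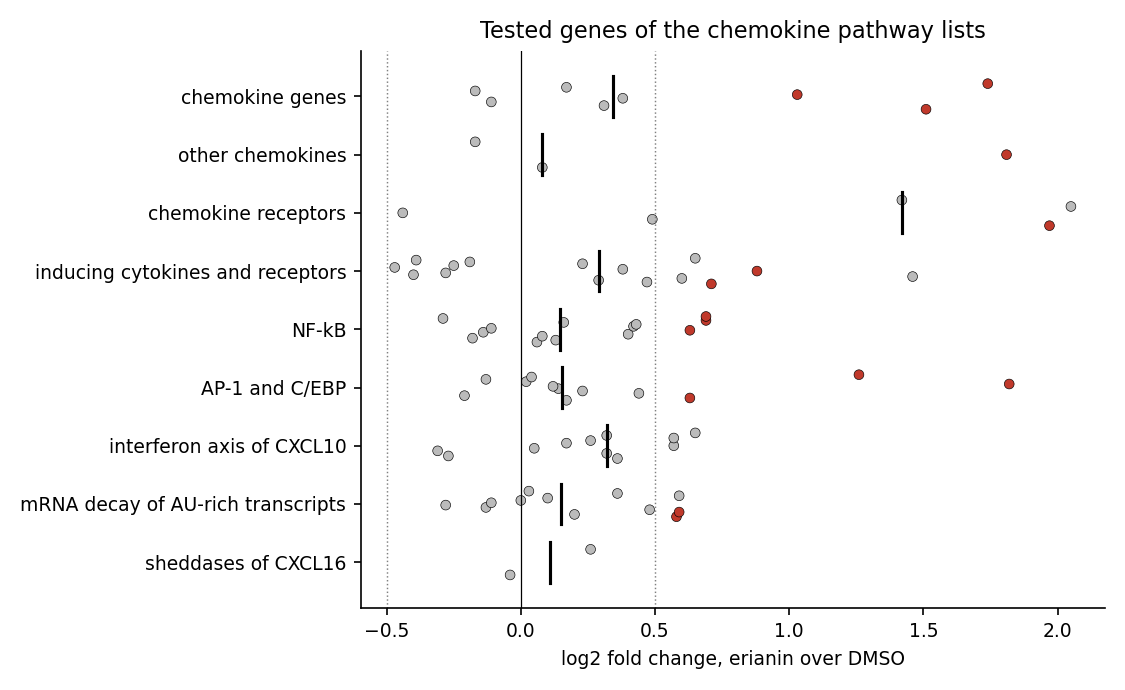
Each point is a tested gene placed by its log2 fold change of erianin over DMSO (horizontal axis), in rows for the chemokine genes and 8 lists of related genes, with called genes in red, others in grey, the median of a list as a black tick and dotted lines at 0.5 in either direction. Of the 74 tested genes of the 8 lists 12 are red, all of them to the right.

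Over the 8 lists together, 12 of 74 tested genes rose and 0 fell, against 5.37% and 3.36% of all tested genes, a count that moved with single libraries. Without DMSO replicate 3 it was 24, where 11.4% of all genes tested were called higher. It was 7 without DMSO replicate 1, 8 without DMSO replicate 2, and 4, 3 and 5 without erianin replicates 1, 2 and 3. The shares of all genes called in the latter fits are not given here. A change in the lists therefore cannot be told apart there from a change over all genes. Of the 12 genes, 3 were called with each library left out in turn, CX3CL1, ATF3 and DDIT3, and the other 9, CXCR4, IL1A, IL6R, CHUK, TNFAIP3, BIRC3, FOSB, ZFP36 and ZFP36L2, lost the call without at least 1 library.

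Patterns were compared by the root mean square difference of log2 CPM, centred on the DMSO mean, over the 6 libraries. The genes most like CXCL8 among 12659 genes compared were DUSP1 (0.0919), GDNF (0.102) and PTX3 (0.115), where the median gene differed by 1.07. A gene that did not change differs from CXCL8 in this measure through the rise of CXCL8 alone. The median thus does not show how unusual such likeness is among genes that rose. DUSP1, a phosphatase of MAP kinases, had 98.1, 97.8 and 78.8 CPM in DMSO replicates 1 to 3 and 263, 272 and 271 CPM in erianin replicates 1 to 3. PTX3, a secreted pentraxin, had 18.9, 18.4 and 13.9 CPM with DMSO and 48, 45.8 and 46.4 CPM with erianin. GDNF, a neurotrophic factor, was under 1 CPM in every library. For CXCL1, the most abundant member, they were TRMT6 (0.0179), SPAG9 (0.0181) and SBNO1 (0.0241), where the median gene differed by 0.356. SPAG9 had 85.5, 92.1 and 115 CPM with DMSO and 118, 123 and 121 CPM with erianin, so that DMSO replicate 3 was again nearest to the erianin libraries.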

How the data were processed

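Total RNA of CAL62 cells, 3 libraries with DMSO and 3 with erianin, was sequenced on a BGISEQ-500. The authors deposited a table of raw counts and, in a second table, TPM values, scaled by gene length and by the library's sum of length-scaled values. The submitters' processing notes name fastp 0.23.2, STAR 2.7.10, featureCounts 2.0.1, StringTie 2.2.1 and GRCh38, and the annotation and the strand setting are not given in the sources used here. Of 65807 rows, 26480 without an identifier hold 0.00385% to 0.00515% of the counts and were left out. Identifiers were matched to symbols for 38259 of 39168, and to coordinates in GENCODE release 29.

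Counts were analysed with edgeR 4.0.16 in R 4.3.3 (TMM, filterByExpr by group, glmQLFit, glmQLFTest, no replicate term), with Benjamini-Hochberg adjusted p under 0.05 and absolute log2 fold change over 0.5. The F statistic of that test gave the standard errors. Floors of 3 counts cover counting error only. Alternatives were DESeq2 1.42.0, RLE and upper-quartile factors, low-count filters of 10 counts per library or none, limma 3.58.1 on log2(TPM + 1) for genes whose TPM averaged 1 or more, with a pseudocount of 0.1 or without the filter, a GC offset (loess, span 0.5), the replicate number as a block, other fold-change thresholds, and each library left out. Ratios to CXCL8 with each library left out were added after seeing the data. In simulated counts edgeR recovered 88 of 88 genes changed by 1 and 112 of 112 changed by 2 on the log2 scale. This was over 12787 genes, with 1 unchanged gene called. The simulation set a coefficient of variation of 0.1 with no library apart from its group, where these libraries gave 0.139. It checks the code and does not measure how well changes are found in these libraries.

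The members and lists were chosen with earlier results of these data known. Genes named are the 10 chemokines, other chemokines and receptors with a mean of at least 1 CPM, up to 4 genes of highest mean CPM and up to 3 called genes of largest change in each other list, and the 3 genes most like CXCL8 and CXCL1. A gene that this rule selects is not reported here. Marker genes, genes of the chromosome 4 cluster and receptors at 0 are named beside the results they touch and were picked with their values seen. Sequences are from RefSeq, where 8 of the 10 genes had a promoter entry; CXCL16 and CCL2 were not among them. The symbols CCL3, CCL4, CCL5, CCL14, CCL15, CCL16, CCL18, CCL23 and IKBKG matched no identifier and were not analysed here. Other tools were Python 3.11.15, pandas 2.3.3, scipy 1.17.1 and matplotlib 3.10.9.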

Additional observations from a re-analysis of the deposited data

How the results depend on the processing

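CXCL8, CXCL5 and CCL20 kept their direction and their call under each alternative run. The number of chemokine genes called higher was 3 in edgeR, in DESeq2 and with each library left out (range 3 to 3), and 5 in each of the 3 fits of TPM, where CXCL1 and CXCL3 joined. The number called lower was 0 in each. On the TPM scale the log2 fold change of CXCL2 turned to 0.08 and that of CXCL10 to 0.04 in each of the 3 fits, where the median of all tested genes stood at 0.18 (pseudocount 1), 0.20 (pseudocount 0.1) and 0.12 (no filter). The cause was not tested. In the lists of related genes, 12 genes called higher became 20 with TPM and a pseudocount of 1, where 9.41% of all tested genes were called higher. The number was 21 with a pseudocount of 0.1 and 22 with TPM unfiltered, for which the share of all genes is not given here. It was 4 with a log2 fold change over 1, and 3 to 24 with each library left out. Genes called lower, 0 in edgeR, were 2 with the GC offset, 1 with the GC offset and replicate block, 3 without a fold-change threshold, and 0 to 1 with a library left out.

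No pairing of the samples by replicate number was visible. Deviations from the group means of libraries with the same number correlated at 0.00138, 0.0253 and -0.0329. These lay within the range of those with different numbers (-0.0569 to 0.0572). With 3 libraries a group and DMSO replicate 3 apart from its own, the check cannot exclude that cultures were paired. With the replicate number as a block, the chemokine genes called higher remained 3 in number, with log2 fold changes of 1.51 for CXCL8, 1.03 for CXCL5 and 1.75 for CCL20, and 9 list genes were called higher. The depth allows no fold change for CXCL6 and CCL2, and with 3 libraries a group the spread of DMSO replicate 3 sets the error of the counts fit.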
